A study of Mus musculus with 18 samples.

Results

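The 39 HOX cluster genes were measured in mouse embryoid bodies, balls of embryonic stem cells that differentiate while floating in medium. They were chosen by symbol alone, as every gene named Hoxa, Hoxb, Hoxc or Hoxd with a paralogue number, and make up 39 of the 54446 gene identifiers counted. There were 6 groups of 3 libraries, all from C57BL/6 embryonic stem cells that were kept in LIF with the inhibitors CHIR99021 and PD0325901 and then differentiated for 7 days on ultra-low attachment plates without feeders. In the Mettl14 line the groups were Mettl14 CKO (conditional knockout) with 5 µM GSK343, Mettl14 CKO with DMSO, and Mettl14 Control. In the Mettl3 line they were Mettl3 CKO with 5 µM GSK-J4, Mettl3 CKO with DMSO, and Mettl3 Control. METTL14 and METTL3 are the paired subunits of the enzyme that places N6-methyladenosine on mRNA. GSK343 blocks EZH2, which methylates histone H3 at lysine 27, and GSK-J4 blocks KDM6A and KDM6B, which remove that mark. The labels name no inhibitor for either Control, so each inhibitor can be compared in one knockout only. They do not say how the deletion was made, which exons it removes, which alleles the Controls carry or how many clones were used. Nothing in the labels states that replicates were separate cultures, so p-values measure the spread between these libraries only, which may be technical.

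HOX genes encode homeodomain transcription factors that give cells their position along the head-to-tail axis and along the limb. They lie in 4 clusters, and a gene's paralogue number follows its place in the cluster: low numbers are active early and towards the head, high numbers late and towards the tail or the tip of the limb. In embryonic stem cells the clusters are classic targets of Polycomb complexes, which keep them silent with histone H3 lysine 27 methylation. Retinoic acid, CDX factors and trithorax proteins open them, and PBX and MEIS proteins bind DNA together with HOX proteins.

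Total counts ran from 721853 to 32540164 per library. The shallowest were Mettl14 CKO with GSK343 replicate 3 and Mettl14 CKO replicate 3, which had 721853 and 1303697 counts. The HOX genes together took 0.0397 to 0.0662% of a library. The RNA of the targeted gene did not pass the test as lower in the libraries labelled CKO. Mettl14 stood at 12.5, 17.7 and 13.1 CPM (read counts scaled to library size with TMM factors, the unit of levels here) with GSK343, at 17.1, 24.6 and 20.2 CPM in Mettl14 CKO and at 17.7, 19.2 and 17.6 CPM in Mettl14 Control, a log2 fold change of 0.21 ± 0.37 for CKO against Control (edgeR adjusted p = 1.00). Mettl3 stood at 6.95, 23.9 and 11.1 CPM with GSK-J4, at 25.9, 6.89 and 17.8 CPM in Mettl3 CKO and at 20.1, 34.1 and 18.8 CPM in Mettl3 Control, a log2 fold change of -0.53 ± 0.63 (edgeR adjusted p = 1.00). The counts cover whole genes, so a deletion of some exons need not lower them, and the groups below are named as labelled. All 11 markers of mesenchyme or fibroblasts averaged at least 1 CPM in every group and summed to 8793 to 16310 CPM in the GSK-J4 libraries and 15250 to 32840 CPM in the others. Pou5f1 and Nanog, which define stem cells, stayed at or below 9.75 and 6.71 CPM. The GSK-J4 libraries stood apart. Their Col1a1, the type I collagen gene, was at 95.8 to 221.8 CPM, against 3718 to 8594 CPM in the other 15 libraries. Of the same 11 markers, Fn1, Vim and Twist1 overlapped with the other libraries, Fn1 at 6593 to 14510 against 3692 to 16650 CPM. The 4 epithelial markers summed to 12.5 to 122.5 CPM with GSK-J4, against at most 10.4 CPM elsewhere. The 6 stem cell markers summed to 66.1 to 85.2 CPM against 17.6 to 64.6 CPM elsewhere, and most of that sum was Klf4, which many differentiated cells express too, at 65.5 to 75.9 CPM against 17.6 to 60.6 CPM. The other 5 went both ways. Pou5f1 and Dppa3 had no count with GSK-J4, and Esrrb was at or below 0.240 CPM, against a median of 0.998 CPM elsewhere. Nanog reached 6.71 CPM in a GSK-J4 library, with a median of 0, against at most 0.554 CPM elsewhere. Zfp42 reached 9.11 CPM with GSK-J4, with a median of 1.44, against at most 1.455 CPM elsewhere. Endothelial markers were at 26.7 to 31.9 CPM against at most 18.35, endoderm markers at 6.235 to 13.2 against at most 4.725, blood markers at 2.16 to 15.35 against at most 2.57, early mesoderm markers at up to 10.8 against at most 3.499, and forebrain and cranial markers at 0.959 to 20.9 against at most 4.25. Neural markers, at 52.9 to 88.4 against 15.96 to 185.4 CPM, and limb markers, at 6.235 to 74.8 against 40.4 to 96.9 CPM, overlapped. Genes of the mitochondrial genome took 0.678 to 0.957% of their counts, against 3.06 to 4.87% elsewhere.

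Most positions of clusters A, B and C were on, and 4 to 6 of the 9 in cluster D. With a gene called on where its level averaged over a group's libraries reached 1 CPM, 27 of the 39 genes were on in all 6 groups. Asking for 1 CPM in every library left 12, among them Hoxa7, Hoxb7, Hoxc6 and Hoxd8. The 27 were Hoxa3, Hoxa4, Hoxa5, Hoxa7, Hoxa9, Hoxa10 and Hoxa11 in cluster A, Hoxb2 to Hoxb9 without a gap in cluster B, every gene but Hoxc12 in cluster C, and Hoxd8, Hoxd9, Hoxd10 and Hoxd13 in cluster D. A group had 30 genes on in Mettl14 CKO with GSK343, 32 in Mettl14 CKO, 32 in Mettl14 Control, 29 in Mettl3 CKO with GSK-J4, 33 in Mettl3 CKO and 32 in Mettl3 Control. The genes that were off in every group were Hoxb1, Hoxb13, Hoxd1, Hoxd4 and Hoxd12. Hoxb1, Hoxb13 and Hoxd1 are the outermost genes of their clusters, Hoxd12 is next to the outermost, and Hoxd4 lies inside cluster D beside Hoxd8. Other genes were near the limit or depended on the group: Hoxd3 was on in 1 group, Hoxa2 in 2, Hoxc12 in 4, and Hoxa6, Hoxa13 and Hoxd11 in 5.

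**Figure D1:**
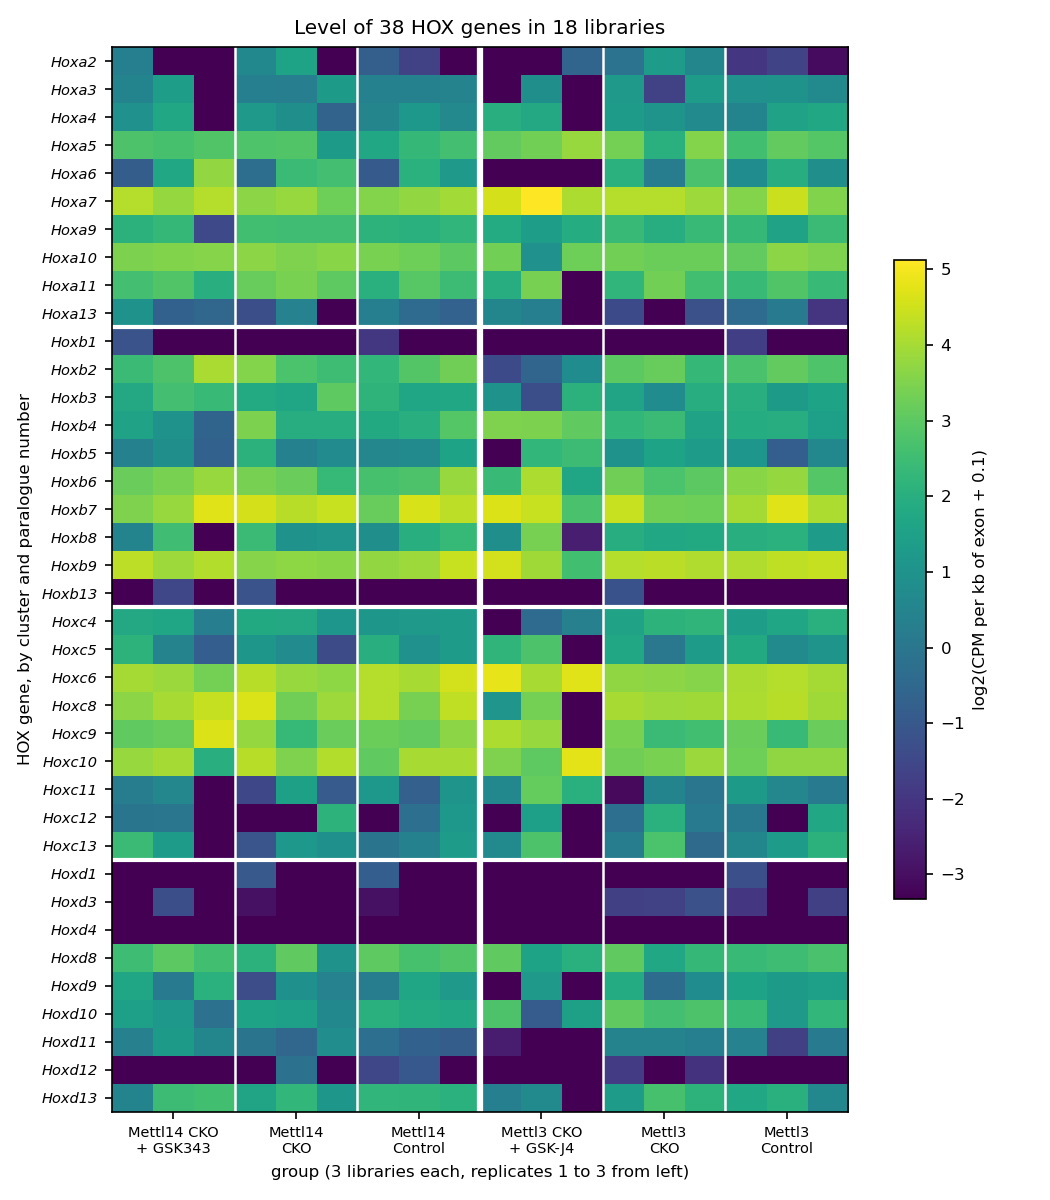
Level of 38 HOX genes (rows, by cluster and paralogue number) in each of the 18 libraries (columns, 3 per group), as log2 of CPM per kb of exon plus 0.1. Hoxb1, Hoxb13, Hoxd1, Hoxd4 and Hoxd12 are dark in nearly all columns, and the 3 GSK-J4 columns are the least alike.

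Among paralogue groups, the middle was highest. Set per kb of exon and averaged over the 18 libraries, the 2 genes of paralogue group 7 summed to 34.3 CPM per kb, the 4 of group 9 to 32.3, the 3 of group 6 to 29.1, the 3 of group 10 to 26.9 and the 3 of group 8 to 23.2. Group 5 summed to 11.7, group 4 to 9.59, group 11 to 8.90, group 2 to 7.30, group 13 to 6.33 and group 3 to 4.94 CPM per kb. Group 12 was lower still, with 1.30 CPM per kb. Neighbours in this order overlapped: over single libraries group 7 ranged from 20.6 to 56.0 and group 9 from 9.59 to 47.6 CPM per kb.

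Cluster D was the lowest of the 4 in every group. Its 9 genes summed to 17.0 ± 2.88 CPM per kb in Mettl14 CKO with GSK343, 12.96 ± 5.34 in Mettl14 CKO, 18.3 ± 1.06 in Mettl14 Control, 9.99 ± 5.35 in Mettl3 CKO with GSK-J4, 20.3 ± 3.37 in Mettl3 CKO and 16.3 ± 1.94 in Mettl3 Control (SD, n = 3 each). The group means of cluster A lay between 44.4 and 59.5, those of cluster B between 59.9 and 68.5, and those of cluster C between 58.1 and 67.7 CPM per kb. The sum over all 39 genes was 200.3 ± 15.0 CPM per kb in Mettl14 CKO with GSK343, 197.5 ± 28.1 in Mettl14 CKO, 194.5 ± 32.0 in Mettl14 Control, 196.9 ± 41.5 in Mettl3 CKO with GSK-J4, 195.1 ± 13.96 in Mettl3 CKO and 201.1 ± 16.4 in Mettl3 Control. Within each line these means differed by less than the SD of its Control. The GSK-J4 sum depended on the scaling: the TMM factors were 1.19 to 1.23 in those libraries, against 0.873 to 1.02 in the others, and without them the sum was 239.0 CPM per kb. In a bulk measurement, fewer cells that express a gene and less RNA of it per cell cannot be told apart.

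**Figure D2:**
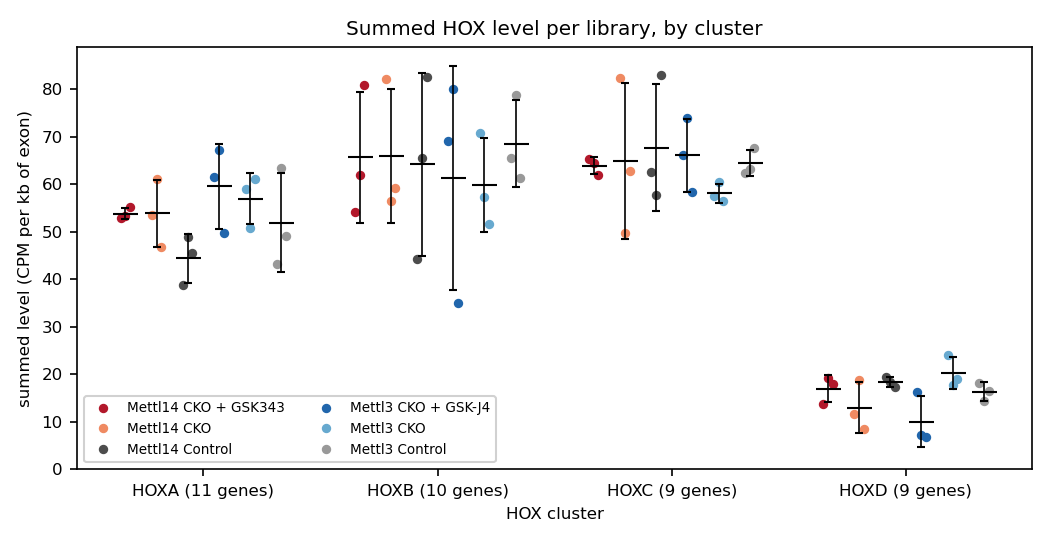
Summed level of each HOX cluster (CPM per kb of exon, y axis) in each library; points are libraries, bars the mean and SD of 3. Cluster D is lowest in every group, and its GSK-J4 points, between 6.69 and 16.2, lie below the Mettl3 CKO points, between 17.7 and 24.1, which holds with TMM factors but not on library size alone.

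The cluster spans, in mm10 coordinates, were chr6:52155590-52260880 on the minus strand for cluster A, chr11:96194316-96368256 on the plus strand for cluster B, chr15:102921103-103036852 on the plus strand for cluster C and chr2:74668310-74765142 on the plus strand for cluster D. In cluster A, Hoxa7 and Hoxa10 were the highest per kb. Hoxa7, which helps to pattern the thoracic axis, stood at 52.1, 39.02 and 52.4 CPM with GSK343, 35.9, 40.1 and 27.2 in Mettl14 CKO, 33.9, 38.1 and 44.8 in Mettl14 Control, 68.1, 100.1 and 48.8 with GSK-J4, 52.0, 51.8 and 42.2 in Mettl3 CKO and 33.7, 62.6 and 32.5 in Mettl3 Control. Hoxa10, a gene of the lumbar axis, the limb and the uterus, stood at 35.6, 37.5 and 39.3 CPM with GSK343, 41.2, 36.5 and 40.4 in Mettl14 CKO, 35.2, 31.0 and 25.7 in Mettl14 Control, 32.1, 5.96 and 30.7 with GSK-J4, 32.4, 30.3 and 30.1 in Mettl3 CKO and 27.8, 40.7 and 36.6 in Mettl3 Control. Hoxa10 was the steadier gene: 17 libraries held it between 25.7 and 41.2 CPM, and GSK-J4 replicate 2 was the exception.

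In cluster B the highest were Hoxb7 and Hoxb9, both genes of the trunk. Hoxb7 stood at 17.1, 21.8 and 40.7 CPM with GSK343, 36.7, 28.4 and 32.5 in Mettl14 CKO, 13.6, 37.8 and 30.0 in Mettl14 Control, 39.8, 32.7 and 9.78 with GSK-J4, 33.0, 15.3 and 14.5 in Mettl3 CKO and 24.6, 40.2 and 26.0 in Mettl3 Control. Hoxb9, which acts on the ribs, stood at 50.4, 38.3 and 45.1 CPM with GSK343, 30.9, 32.7 and 31.6 in Mettl14 CKO, 34.6, 37.9 and 54.3 in Mettl14 Control, 59.5, 38.6 and 15.2 with GSK-J4, 47.0, 48.8 and 44.1 in Mettl3 CKO and 44.8, 51.3 and 53.4 in Mettl3 Control. The Hoxb7 levels of the groups overlapped within each line, and Hoxb9 fell under 30.9 CPM only in GSK-J4 replicate 3. Over the 18 libraries their means were 17.8 and 16.4 CPM per kb.

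In cluster C the highest were Hoxc6 and Hoxc8, which pattern the thoracic axis, with 16.8 and 14.2 CPM per kb over the 18 libraries. Hoxc6 stood at 37.7, 34.9 and 24.7 CPM with GSK343, 45.0, 34.1 and 30.8 in Mettl14 CKO, 43.4, 38.9 and 56.3 in Mettl14 Control, 68.1, 39.1 and 62.6 with GSK-J4, 31.6, 30.2 and 28.7 in Mettl3 CKO and 40.0, 43.8 and 38.3 in Mettl3 Control. Hoxc8 stood at 35.6, 45.9 and 58.2 CPM with GSK343, 70.9, 27.5 and 41.3 in Mettl14 CKO, 50.6, 29.6 and 56.0 in Mettl14 Control, 5.75, 28.9 and 0 with GSK-J4, 45.6, 41.7 and 42.4 in Mettl3 CKO and 47.6, 52.1 and 42.5 in Mettl3 Control. Hoxc6 was present at 24.7 CPM or more everywhere, while Hoxc8 had no count in GSK-J4 replicate 3.

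In cluster D the highest were Hoxd8 and Hoxd10, with 5.75 and 3.69 CPM per kb. Hoxd8 stood at 15.3, 21.7 and 16.0 CPM with GSK343, 11.4, 22.7 and 5.27 in Mettl14 CKO, 22.3, 17.0 and 19.4 in Mettl14 Control, 22.5, 7.98 and 10.96 with GSK-J4, 22.4, 8.95 and 13.2 in Mettl3 CKO and 14.2, 15.2 and 17.5 in Mettl3 Control. Hoxd10, a gene of the hindlimb and the lumbar cord, stood at 4.79, 3.95 and 1.46 CPM with GSK343, 5.28, 4.76 and 2.63 in Mettl14 CKO, 7.24, 6.27 and 5.91 in Mettl14 Control, 12.2, 0.808 and 4.89 with GSK-J4, 15.1, 10.8 and 12.2 in Mettl3 CKO and 9.40, 4.06 and 8.62 in Mettl3 Control. Hoxd8 overlapped between all groups of a line. Hoxd13, which patterns the digits, was the only gene of paralogue group 13 other than Hoxc13 that was on in all groups, at 0 to 15.6 CPM over the libraries.

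Hoxd4, a gene of the hindbrain and neck, had 0 counts in all 18 libraries, out of 251966484 counts in all. A count of 0 allows a level of up to 0.0922 CPM in the deepest library and 4.16 CPM in the shallowest, taking 3 counts as the limit on library size alone, which covers counting error only. Of its exon bases, 52.3% also belong to other genes on the same strand, Hoxd3 among them, where the authors' counting could have left reads unassigned, so its 0 is uncertain. Hoxd3 shares 62.4% of its exon bases in the same way and peaked at 1.39 CPM. The other genes off in every group did have counts: Hoxb1, the hindbrain gene that marks the fourth rhombomere, had 29 counts in 3 libraries, Hoxd1 had 26 in 3, Hoxb13, a gene of the tail bud and the prostate, had 36 in 3, and Hoxd12 had 51 in 5. Genes that overlap an antisense transcript are uncertain too, since the strand setting of the counting is not given in the sources used here: 52.9% of Hoxb3, 35.0% of Hoxa11, 27.3% of Hoxb2 and 25.4% of Hoxa3 exon bases lie opposite another gene.

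The promoters of Hoxd8 and Hoxd4 show neighbours in cluster D, of which Hoxd8 was on and Hoxd4 had no count. That lack of counts is uncertain, since Hoxd4 shares exon bases with other genes. The promoter of Hoxa6, a gene that had no count with GSK-J4, is shown with them. Each is the RefSeq sequence of GRCm38.p6, the mm10 assembly, from 250 bases before to 50 bases after 1 annotated start of the gene, 5′ to 3′ on the gene's own strand, with every CG dinucleotide in capitals. CG-rich promoters are the typical landing sites of Polycomb complexes.
Hoxd8, chr2:74704365-74704664, plus strand: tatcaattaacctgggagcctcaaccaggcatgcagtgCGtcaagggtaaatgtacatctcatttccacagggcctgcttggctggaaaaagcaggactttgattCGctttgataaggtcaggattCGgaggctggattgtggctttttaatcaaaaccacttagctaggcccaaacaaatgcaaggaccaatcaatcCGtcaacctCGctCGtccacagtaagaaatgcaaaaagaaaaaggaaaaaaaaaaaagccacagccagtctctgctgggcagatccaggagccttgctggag
Hoxd4, chr2:74721728-74722027, plus strand: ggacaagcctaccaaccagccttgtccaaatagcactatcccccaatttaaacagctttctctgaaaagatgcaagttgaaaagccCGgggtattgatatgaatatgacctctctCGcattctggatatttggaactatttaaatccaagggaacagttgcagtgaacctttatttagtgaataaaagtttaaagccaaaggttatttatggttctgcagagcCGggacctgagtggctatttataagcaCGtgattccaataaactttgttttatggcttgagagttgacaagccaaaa
Hoxa6, chr6:52208623-52208922, minus strand: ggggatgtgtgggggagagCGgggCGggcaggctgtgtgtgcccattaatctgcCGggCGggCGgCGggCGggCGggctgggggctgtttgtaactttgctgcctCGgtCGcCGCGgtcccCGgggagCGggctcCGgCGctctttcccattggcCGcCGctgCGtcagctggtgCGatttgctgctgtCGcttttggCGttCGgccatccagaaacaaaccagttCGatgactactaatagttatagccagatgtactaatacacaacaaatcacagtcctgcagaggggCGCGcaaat
The windows of Hoxd8, Hoxd4 and Hoxa6 held 6, 4 and 26 CG dinucleotides. The table gave 24 windows for 22 of the 39 HOX genes, and 17 of those windows held at least 10 CG, against 43.5% of the 32851 windows of all genes. Genes on in all 6 groups had a median of 14.5 CG over 14 windows, with a range of 4 to 37. Genes on in none had a median of 11.5 over 4 windows, with a range of 4 to 29. The window of Hoxd4, whose lack of counts is uncertain, is among these. The ranges overlapped, so the count of CG in these windows did not separate genes that were on from genes that were off. The letters TGATNNAT, to which PBX and HOX proteins bind together, occurred on either strand in 4 of the 24 windows and in 8.85% of all windows.

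The clusters also hold microRNA genes of the miR-10 and miR-196 families, which lie among the HOX genes and are known to target HOX mRNA. Their mature sequences, from RefSeq (GRCm38.p6), are shown with the seed, bases 2 to 8, in capitals, since the seed sets which mRNAs each can pair with.
miR-10a-5p, chr11:96317186-96317208, between Hoxb5 and Hoxb4: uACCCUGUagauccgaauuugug
miR-10b-5p, chr2:74726074-74726096, within the span of Hoxd4: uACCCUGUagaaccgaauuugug
miR-196a-5p, chr11:96265187-96265208 and chr15:102973365-102973386: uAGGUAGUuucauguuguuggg
miR-196b-5p, chr6:52230129-52230150, within the span of Hoxa9: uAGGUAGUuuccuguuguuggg
Both miR-10 forms share a seed and differ by U12A, and both miR-196 forms share a seed and differ by A12C, with positions counted from 1 at the 5′ end and the form named first given first. The libraries do not measure mature microRNAs, which carry no poly(A) tail, but reads over the hairpin genes were counted. Mir196a-1 had 267 counts over 15 libraries, Mir196a-2 had 21, Mir10b had 20, Mir10a had 18 and Mir196b had none. Of the 43 noncoding genes annotated within the 4 spans, 14 had no count and only Gm53, between Hoxb13 and Hoxb9, was seen in all 18 libraries, with 10507 counts.

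The profile of levels over the 39 genes was alike in 5 of the 6 groups. Between group means, Spearman's rho over the 39 genes was 0.946 to 0.977 for the pairs without GSK-J4 and 0.771 to 0.869 for the pairs with it, as a description of genes that share libraries. Within groups, rho between replicates was 0.782 to 0.961 outside the GSK-J4 group and 0.457 to 0.759 within it. Of the 27 genes on in all groups, 11 had no count in at least 1 GSK-J4 library and 5 in at least 1 GSK343 library, against none in the other 4 groups. All 5 of the GSK343 zeros were in replicate 3, the shallowest library. The median coefficient of variation of those 27 genes was 52.8% with GSK343, 44.9% in Mettl14 CKO, 30.0% in Mettl14 Control, 87.4% with GSK-J4, 28.8% in Mettl3 CKO and 25.1% in Mettl3 Control.

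In the Mettl14 line, no HOX gene passed the test in any comparison. Mettl14 CKO against Mettl14 Control asks how libraries labelled as knockout differ from their Control. Of 32 tested HOX genes, 0 were called by edgeR's quasi-likelihood test at a Benjamini-Hochberg adjusted p under 0.05. An unadjusted p under 0.05 was reached by 0, and DESeq2 and limma voom each called 0. Of all 13882 genes tested, 0% were called and 1.5% had an unadjusted p under 0.05. The median log2 fold change was 0.04 over the HOX genes, 16 up and 16 down, and 0.01 over all genes. By cluster the medians were 0.31 in A, 0.23 in B, -0.09 in C and -0.47 in D. The smallest p belonged to Hoxa11, a gene of the forearm and the uterus, at 20.2, 24.4 and 18.4 CPM in Mettl14 CKO and 9.11, 17.1 and 12.3 CPM in Mettl14 Control, a log2 fold change of 0.74 ± 0.41 (SE, adjusted p = 1.00). Its 3 CKO libraries all lay above the Control libraries with TMM factors. On library size alone Hoxa11 overlapped, at 16.11 CPM in CKO replicate 3 and 16.13 CPM in Control replicate 2. Hoxa2, which specifies the second pharyngeal arch, came next, at 2.57, 5.07 and 0 CPM in Mettl14 CKO and 0.873, 0.384 and 0 CPM in Mettl14 Control, a log2 fold change of 2.71 ± 1.58 (adjusted p = 1.00). These libraries overlapped. With TMM factors, Hoxa9, Hoxa10 and Hoxa11 were higher without overlap between the groups, 3 of 32 against 2.9% of all genes. Hoxb9 and Hoxd10 were lower without overlap, 2 of 32 against 4.77%.

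Adding GSK343 to the Mettl14 CKO likewise gave no call. Of the 32 tested HOX genes 0 were called, against 0.0288% of all genes, and 1 had an unadjusted p under 0.05, where 5.74% of all genes did. The other tools, DESeq2 and limma voom, called 0. The HOX median was 0.05, with 17 up and 15 down, and the median of all genes -0.03. The gene with the low p was Hoxb4, which acts in the neck and in blood stem cells. It stood at 7.29, 4.87 and 1.46 CPM with GSK343 and 27.9, 9.52 and 9.66 CPM in Mettl14 CKO, a log2 fold change of -1.62 ± 0.58 (adjusted p = 0.656). Every GSK343 library lay below every CKO library, but the 1.46 CPM of GSK343 replicate 3 was 1 count. In that library the limit of 3 counts stands at 4.16 CPM. Hoxb9 had 50.4, 38.3 and 45.1 CPM with GSK343 and 30.9, 32.7 and 31.6 CPM in Mettl14 CKO, a log2 fold change of 0.49 ± 0.30 (adjusted p = 0.934), again without overlap. In all, Hoxb9 was higher without overlap, 1 of 32 against 4.51% of all genes, and Hoxa9, Hoxa11 and Hoxb4 were lower, 3 of 32 against 5.29%. Hoxa9 also had 1 count in GSK343 replicate 3.

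Against Mettl14 Control, the Mettl14 CKO with GSK343 had 0 of 32 HOX genes called and 1 at an unadjusted p under 0.05, with 0.166% of all genes called, 0.151% higher and 0.0144% lower, and 4.34% with a p under 0.05 before adjustment. By DESeq2 and by limma voom 0 HOX genes were called. The HOX median was 0.16 and the median of all genes -0.01. In cluster A 9 of 11 genes had a positive log2 fold change, with a range of -0.34 to 1.08, also with RLE factors or library size alone in place of TMM. In the other clusters 4 of 8 were positive in B, 4 of 8 in C and 2 of 5 in D, beside 48.5% of all genes. The smallest p were those of Hoxb4, with 7.29, 4.87 and 1.46 CPM with GSK343 and 8.73, 10.1 and 18.9 CPM in Mettl14 Control, a log2 fold change of -1.23 ± 0.57 (adjusted p = 1.00), and of Hoxd11, a forearm gene. Hoxd11 had 4.99, 9.82 and 5.82 CPM with GSK343 and 3.12, 2.18 and 1.94 CPM in Mettl14 Control, a log2 fold change of 1.55 ± 0.76 (adjusted p = 1.00). Neither gene's groups overlapped. Hoxa5, Hoxa10 and Hoxd11 were higher without overlap, 3 of 32 against 4.29% of all genes, and Hoxb4, Hoxc6 and Hoxd10 lower, 3 of 32 against 7.17%. In GSK343 replicate 3, Hoxb4 and Hoxd10 each rest on 1 count and Hoxd11 on 4.

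**Figure D3:**
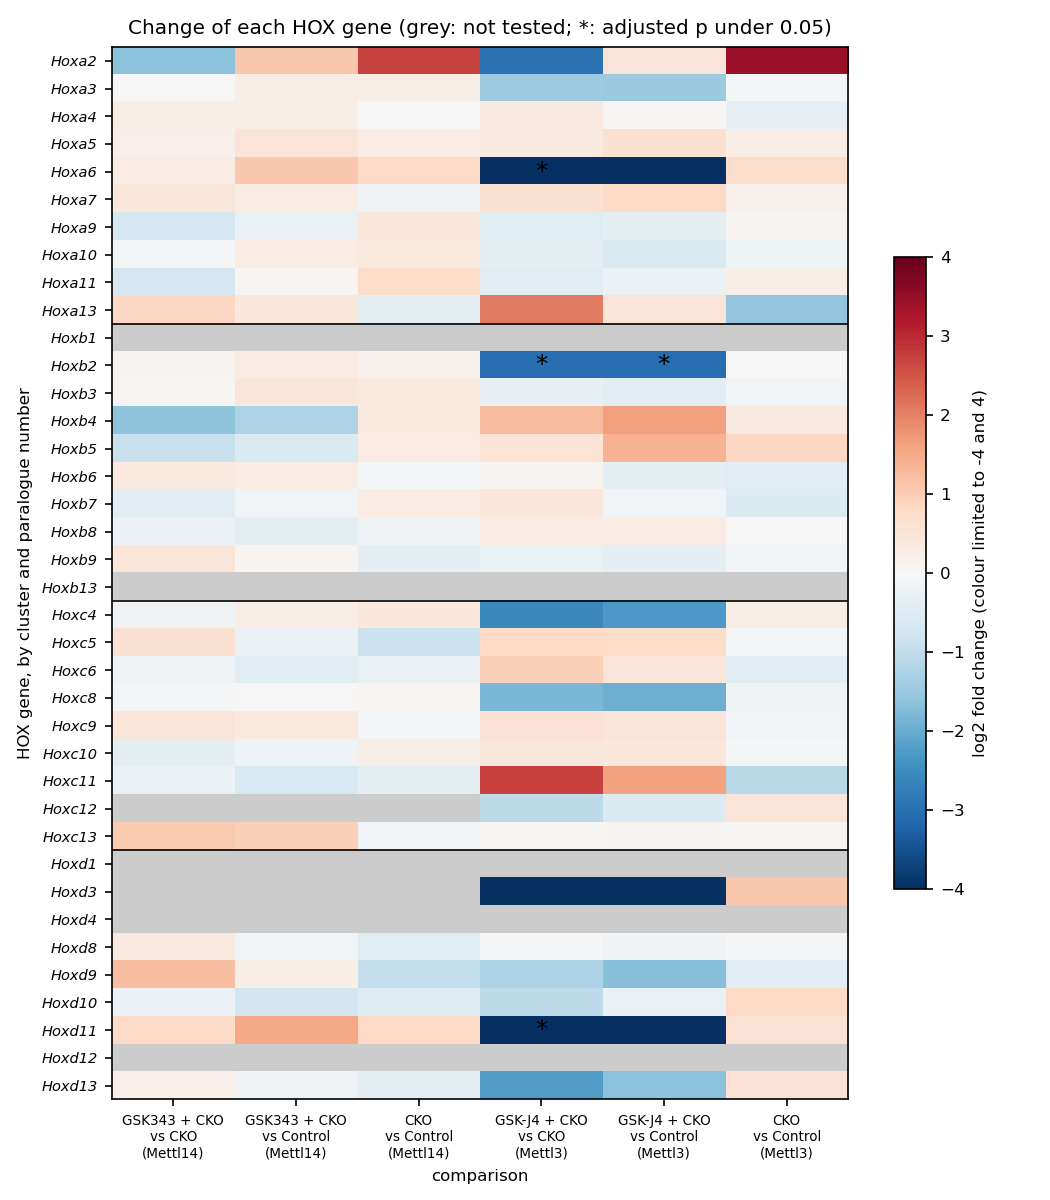
Log2 fold change of 38 HOX genes (rows) in 6 comparisons (columns), with colour limited to -4 and 4, grey for genes too low to test and a star at an adjusted p under 0.05. The 4 stars, at Hoxa6, Hoxb2 and Hoxd11 against Mettl3 CKO and at Hoxb2 against Mettl3 Control, all lie in the GSK-J4 columns.

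In the Mettl3 line, Mettl3 CKO against Mettl3 Control gave 0 of 34 HOX genes called by edgeR, 0 at an unadjusted p under 0.05, 0 by DESeq2 or limma voom, and 0% of all 16782 genes called, with 1.88% at an unadjusted p under 0.05. The HOX median was -0.03, with 16 up and 18 down, and the median of all genes -0.01. Hoxa2 had the smallest p, with 1.48, 4.27 and 2.44 CPM in Mettl3 CKO and 0.275, 0.413 and 0.0353 CPM in Mettl3 Control, a log2 fold change of 3.46 ± 1.98 (adjusted p = 1.00). Hoxc6 followed, with 31.6, 30.2 and 28.7 CPM in Mettl3 CKO and 40.0, 43.8 and 38.3 CPM in Mettl3 Control, a log2 fold change of -0.43 ± 0.30 (adjusted p = 1.00). Neither gene overlapped between the groups, and neither passed. The spread in this line, fitted with the GSK-J4 libraries included, was a biological coefficient of variation of 0.843, against 0.394 in the Mettl14 line. Hoxa2, Hoxd3 and Hoxd10 were higher without overlap, 3 of 34 against 6.47% of all genes, and Hoxc6 was lower, 1 of 34 against 6.61%.

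With GSK-J4, single genes of clusters A, B and D passed the test, and their tested neighbours did not. Against Mettl3 CKO, Hoxb2, Hoxa6 and Hoxd11 fell and none rose: 3 of 34 tested HOX genes, against 13% of all genes in either direction, 9.07% lower and 3.96% higher. Against Mettl3 Control, Hoxb2 fell, 1 of 34, against 11.4% of all genes, 8.25% lower and 3.16% higher. Both comparisons use the same GSK-J4 libraries. The share of HOX genes called was thus not above that of all genes. At an unadjusted p under 0.05 there were 7 and 5 of the 34 HOX genes, where 28.5% and 27.9% of all genes passed. The HOX medians were -0.16 against Mettl3 CKO and -0.18 against Mettl3 Control, where all genes had -0.06 and -0.08. On library size alone, without TMM factors, these medians were 0.09 and 0.07 for the HOX genes and 0.19 and 0.18 for all genes.

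Hoxb2 (chr11:96350525-96354012, plus strand), which patterns the hindbrain and the facial nerve, stood at 0.959, 2.02 and 5.74 CPM with GSK-J4, 27.2, 30.6 and 16.8 CPM in Mettl3 CKO and 22.1, 29.5 and 23.9 CPM in Mettl3 Control. Every GSK-J4 library lay below every other library of the series, as the lowest of the other 15 had 16.5 CPM. The log2 fold change was -3.04 ± 0.67 against Mettl3 CKO (adjusted p = 0.0127) and -3.06 ± 0.67 against Mettl3 Control (adjusted p = 0.0131). Hoxb3, its neighbour, had log2 fold changes of -0.33 ± 0.83 and -0.45 ± 0.83 in these comparisons (adjusted p = 0.833 and 0.770), and the difference between the neighbours was not tested.

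Hoxa6 (chr6:52206288-52208722, minus strand), a gene of the upper thoracic axis, had no count in any GSK-J4 library, 3.63, 0.969 and 5.54 CPM in Mettl3 CKO and 1.42, 3.27 and 1.52 CPM in Mettl3 Control. With the limit of 3 counts per library, on library size alone, it was at least 5.48-fold lower than in Mettl3 CKO (adjusted p = 0.0373) and at least 3.30-fold lower than in Mettl3 Control (adjusted p = 0.0520). It was present in each of the other 15 libraries, at 0.374 CPM or more. Its neighbour Hoxa5, which acts in the neck and the lung, had 15.8, 18.7 and 26.1 CPM with GSK-J4 and 19.3, 7.58 and 22.0 CPM in Mettl3 CKO, a log2 fold change of 0.36 ± 0.54 (adjusted p = 0.707). Hoxa7, on the other side, had 0.62 ± 0.35 (adjusted p = 0.269).

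Hoxd11 (chr2:74679557-74687016, plus strand) had 0.240, 0 and 0 CPM with GSK-J4, 5.33, 5.36 and 4.89 CPM in Mettl3 CKO and 5.23, 0.861 and 4.35 CPM in Mettl3 Control. The 3 GSK-J4 libraries held 1 count of it in all, while Mettl3 CKO held 411. Pooled over libraries it was 86.0-fold lower than in Mettl3 CKO, with an exact 95% interval of 15.3 to 3404 that covers counting error only (edgeR adjusted p = 0.0417). Against Mettl3 Control it was 54.3-fold lower, with an interval of 9.66 to 2153 (adjusted p = 0.0613). Without GSK-J4 replicate 1, which held the 1 count, only bounds remain, at least 10.6-fold lower than in Mettl3 CKO and 7.08-fold lower than in Mettl3 Control, and without replicate 2 these folds were 42.9 and 27.1. The groups did not overlap, and the lowest Control library had 0.861 CPM.

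**Figure D4:**
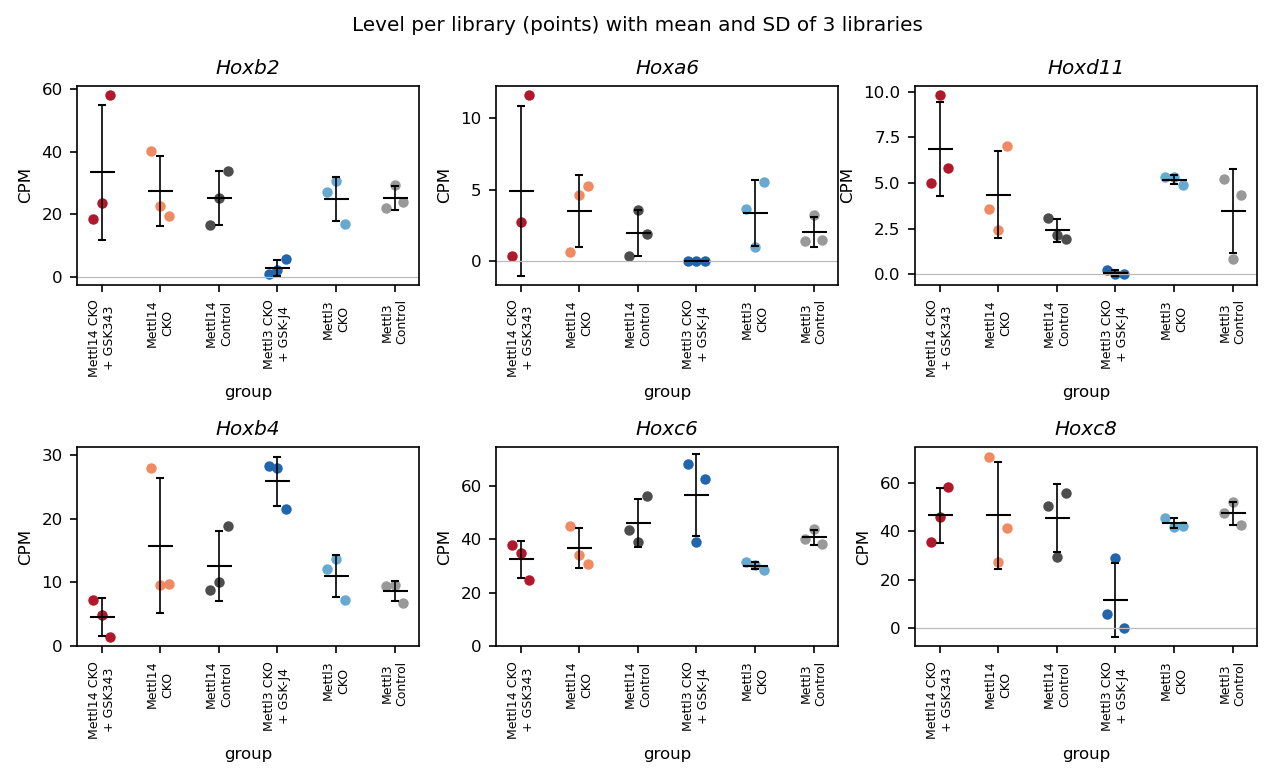
Level (CPM) of 6 HOX genes in each library (points) with the mean and SD of 3 libraries per group. In the GSK-J4 group Hoxb2 stays at or below 5.74 CPM, Hoxa6 is at 0 and Hoxd11 is at or below 0.240 CPM, while Hoxb4 lies above 21.4 CPM.

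The nearest genes that did not pass against Mettl3 CKO went both ways. Hoxc6 had 68.1, 39.1 and 62.6 CPM with GSK-J4 and 31.6, 30.2 and 28.7 CPM in Mettl3 CKO, a log2 fold change of 0.95 ± 0.30 (adjusted p = 0.0602). Hoxb4 had 28.3, 27.9 and 21.4 CPM with GSK-J4, 12.1, 13.6 and 7.30 CPM in Mettl3 CKO and 9.36, 9.64 and 6.75 CPM in Mettl3 Control. Its log2 fold change was 1.28 ± 0.51 against Mettl3 CKO (adjusted p = 0.127) and 1.64 ± 0.52 against Mettl3 Control (adjusted p = 0.0640), and its GSK-J4 libraries all lay above the others of the line. Hoxd3 had no count with GSK-J4 and 0.862, 0.912 and 1.39 CPM in Mettl3 CKO, which makes it at least 1.71-fold lower (adjusted p = 0.144). Hoxc4 had 0, 1.72 and 3.04 CPM with GSK-J4 and 7.20, 11 and 11.5 CPM in Mettl3 CKO, a log2 fold change of -2.57 ± 1.11 (adjusted p = 0.154).

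By cluster, all 6 tested HOXD genes had a negative log2 fold change in both GSK-J4 comparisons with TMM factors, while 6 of 9 HOXC genes had a positive one. Hoxd8 turned positive against Mettl3 CKO with RLE factors, and on library size alone Hoxd8 turned positive in both comparisons and Hoxd10 against Mettl3 Control. The HOXD median was -1.75 against Mettl3 CKO and -1.67 against Mettl3 Control, beside -0.06 and -0.08 over all genes. With Hoxd3, which had no count with GSK-J4, set to its bound, the first was -1.16, and with Hoxd3 left out, since Mettl3 Control was at or under the limit too, the second was -1.65. The HOXC medians were 0.46 and 0.42. By paralogue class, the 6 tested genes of groups 1 to 3 had medians of -2.19 and -0.97, or -1.09 and -0.45 with Hoxd3 treated the same way, the 14 of groups 4 to 8 had 0.35 and 0.16, and the 14 of groups 9 to 13 had -0.43 and -0.31. In summed level, paralogue group 2 stood at 1.02 ± 1.04 CPM per kb with GSK-J4, 8.67 ± 2.49 in Mettl3 CKO and 7.35 ± 1.17 in Mettl3 Control. Cluster D summed to 16.2, 7.13 and 6.69 CPM per kb with GSK-J4, to 24.1, 17.7 and 19.0 in Mettl3 CKO and to 18.2, 14.3 and 16.4 in Mettl3 Control. On library size alone GSK-J4 replicate 1 was at 19.85 and Mettl3 CKO replicate 2 at 17.7 CPM per kb, so these groups then overlapped. Without overlap against Mettl3 CKO, 9 of 34 HOX genes were lower, where 23.2% of all genes were, and 3 were higher, where 10.1% were. Against Mettl3 Control 6 were lower, where 24.1% of all genes were, and Hoxb4 was higher, where 9.69% were.

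Among well-measured HOX genes, counts of 0 were most frequent in the GSK-J4 libraries. The same count was not made over all genes, so the zeros are not shown to be particular to HOX genes. Replicate 3 had 0 counts for 8 of the 24 HOX genes for which the Mettl3 Control level would give at least 20 counts at its depth: Hoxa3, Hoxa11, Hoxc5, Hoxc8, Hoxc9, Hoxc13, Hoxd9 and Hoxd13. For Hoxc8 that level would give 228.4 counts and for Hoxc9 90.7. Replicate 1 had 0 for 2 of 23 such genes, Hoxa3 and Hoxc4, and replicate 2 for 1 of 29, Hoxd11. Among the Mettl14 CKO, GSK343 and Mettl3 CKO libraries, each set against its own Control, the one such case was Hoxa13 in Mettl3 CKO replicate 2. Hoxc8 thus had 5.75, 28.9 and 0 CPM with GSK-J4 and Hoxc9, its neighbour, 41.5, 34.1 and 0 CPM, against 45.6, 41.7 and 42.4 CPM and 25.6, 12.8 and 14.2 CPM in Mettl3 CKO.

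**Figure D5:**
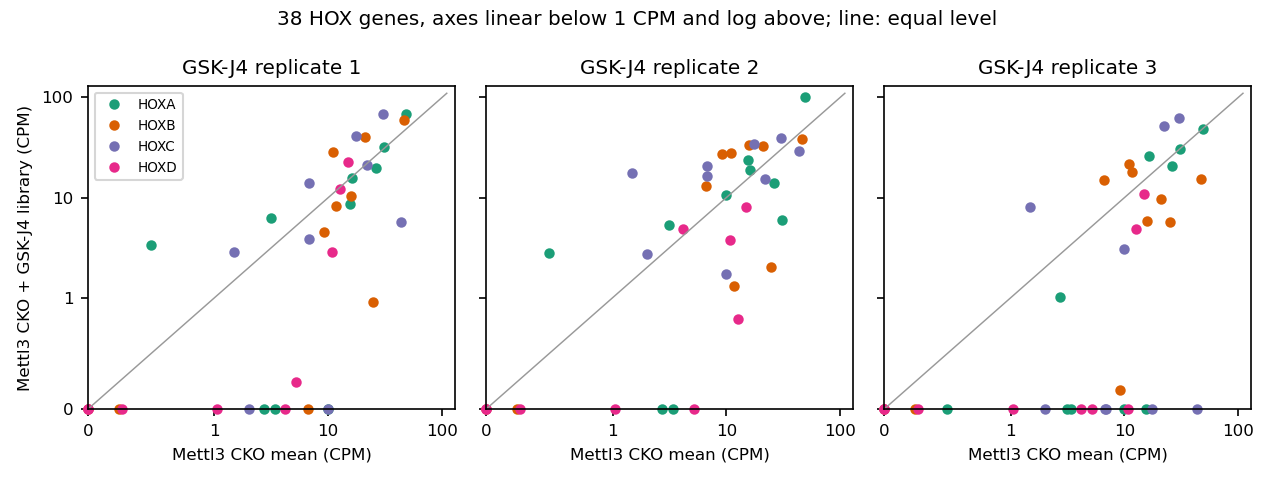
Level of 38 HOX genes in each GSK-J4 library (y axis, CPM) against the Mettl3 CKO mean (x axis, CPM), on axes that are linear below 1 and logarithmic above, with the line of equal level. Points on the bottom edge are genes without a count, among them 8 in replicate 3 that would have had at least 20 counts at the Control level.

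The calls with GSK-J4 depended on single libraries and on the test. Counts over all genes for the fits that left out a library are not given here. Without Mettl3 CKO replicate 1 no HOX gene was called against Mettl3 CKO, without replicate 2 or 3 only Hoxb2 was, and without GSK-J4 replicate 2 the genes called were Hoxa3, Hoxb2, Hoxc6, Hoxc8 and Hoxd9. Over the 6 fits that each left out 1 library of these groups, the log2 fold change of Hoxb2 was -4.06 to -2.79, with an adjusted p of at most 0.0531, while the adjusted p reached 0.149 for Hoxa6 and 0.145 for Hoxd11. DESeq2 called 6, with Hoxb4, Hoxc4 and Hoxc6 added, and limma voom 0. Against Mettl3 Control the call of Hoxb2 was lost without Control replicate 2 (log2 fold change -2.94, adjusted p = 0.0562), and without GSK-J4 replicate 2 the calls were Hoxa3, Hoxb2, Hoxc8 and Hoxd9. The collagen and epithelial markers and the mitochondrial share given above moved with the same libraries. So did Prrx1, another of the mesenchyme or fibroblast markers, at 31.9 to 94.97 CPM against 322.9 to 618.2 CPM elsewhere, while Fn1, Vim and Twist1 overlapped. The part of these markers and of the mitochondrial share in these results was not tested.

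Between the Controls no HOX gene passed. For Mettl14 Control against Mettl3 Control, 0 of 33 HOX genes were called by edgeR and 0 had an unadjusted p under 0.05, against 0.913% of all genes called, 0.76% higher and 0.153% lower, where 5.35% had a p under 0.05 before adjustment. The count was 0 by DESeq2 and by limma voom too. The smallest p belonged to Hoxa5, with 5.99, 9.09 and 11.2 CPM in Mettl14 Control and 10.8, 16.0 and 13.9 CPM in Mettl3 Control, a log2 fold change of -0.63 ± 0.52 (adjusted p = 1.00). The groups overlapped. Without overlap, Hoxd13 was higher, 1 of 33 against 9.62% of all genes, and Hoxa3 and Hoxc4 were lower, 2 of 33 against 8.47%.

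Whether the knockouts differed in their effect was tested as the Mettl14 CKO effect minus the Mettl3 CKO effect over all 18 libraries. Of 33 HOX genes 0 were called by edgeR, 0 had an unadjusted p under 0.05, and 0% of all genes were called, where 2.24% had an unadjusted p under 0.05, with 0 HOX genes by DESeq2 or limma voom. The smallest p were those of Hoxd10, at -1.36 ± 1.10 (adjusted p = 1.00), and Hoxb7, at 0.79 ± 0.71 (adjusted p = 1.00) on the log2 scale.

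Of the genes that work with or on the clusters and are reported here, none was called outside the GSK-J4 comparisons. Of 9 HOX cofactors tested with GSK-J4, 1 fell against Mettl3 CKO, and against Mettl3 Control 1 rose and 1 fell. Of all genes, 3.96% rose and 9.07% fell in the first comparison, and 3.16% and 8.25% in the second. The medians over the 9 were -0.52 and -0.40, with 3 positive each time. Pknox1, a relative of MEIS, was the cofactor that rose against Mettl3 Control, by 1.40 ± 0.40 (log2, adjusted p = 0.0438). Meis1, another partner, had -1.04 ± 0.56 against Mettl3 CKO (adjusted p = 0.245).

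Among the 17 Polycomb genes tested, 3 rose against Mettl3 CKO and 2 against Mettl3 Control, and none fell, where 3.96% and 3.16% of all genes rose and 9.07% and 8.25% fell. Suz12, a core subunit of the EZH2 complex, stood at 72.2, 112 and 142 CPM with GSK-J4, 33.7, 37.4 and 49.5 CPM in Mettl3 CKO and 34.5, 32.9 and 38.2 CPM in Mettl3 Control. Its log2 fold change was 1.48 ± 0.30 (adjusted p = 0.00784) against Mettl3 CKO and 1.68 ± 0.30 (adjusted p = 0.00449) against Mettl3 Control. Aebp2, an accessory subunit, rose by 0.90 ± 0.24 (adjusted p = 0.0313) and 1.16 ± 0.24 (adjusted p = 0.0104) in the same comparisons. Eed, another core subunit, rose by 1.24 ± 0.29 (adjusted p = 0.0169) against Mettl3 CKO. The median over the 17 genes was 0.19 against Mettl3 CKO and -0.04 against Mettl3 Control.

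Of 7 trithorax genes 1 was called with GSK-J4: Rbbp5 rose against Mettl3 Control by 1.13 ± 0.27 (log2, adjusted p = 0.0219), where 3.16% of all genes rose. Kmt2b had the smallest p elsewhere, 1.22 ± 0.29 with GSK343 against Mettl14 CKO (adjusted p = 0.202). Of 7 tested upstream activators none passed. Rara and Rxra, which encode receptors for retinoic acid, had -1.03 ± 0.35 and -1.18 ± 0.42 with GSK-J4 against Mettl3 CKO (adjusted p = 0.0795 and 0.0911), and Cdx2 had no count in any library. Kdm6a and Kdm6b, the targets of GSK-J4, had -0.05 ± 0.41 and 0.04 ± 0.28 (adjusted p = 0.949 and 0.943). Of 11 noncoding cluster genes tested with GSK-J4, 1 fell against Mettl3 CKO and 0 against Mettl3 Control, where 9.07% and 8.25% of all genes fell. Hoxd3os1, antisense in cluster D, had no count with GSK-J4 and 1.75, 7.46 and 0.815 CPM in Mettl3 CKO, at least 5.39-fold lower (adjusted p = 0.0439). That bound was 2.08-fold without Mettl3 CKO replicate 2, and against Mettl3 Control it was 2.80-fold (adjusted p = 0.0662). Hoxa11os had no count with GSK-J4 either and 3.54, 0.0570 and 3.498 CPM in Mettl3 CKO, at least 3.83-fold lower (adjusted p = 0.0756). Evx2, the one tested neighbour gene of the clusters, had at most 1.65 CPM in any library.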

How the data were processed

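RNA was measured by poly(A)-selected, stranded sequencing in 18 libraries. The deposited values are raw read counts per gene, made by the authors, per the submitters' processing notes, with CASAVA, Trimmomatic 0.38, HISAT2 2.1.0 and HTSeq on mm10. The sources used here give neither the annotation release nor the strand setting. Of 54446 gene identifiers 54409 matched GENCODE M21 without their version, which gave symbols, coordinates and exon lengths, and all 39 HOX genes were found. Genes were tested with edgeR 4.0.16 (filterByExpr, TMM factors, quasi-likelihood F test, Benjamini-Hochberg over all genes tested, threshold 0.05), with the 9 libraries of a line fitted together and all 18 for the comparisons between lines. DESeq2 1.42.0 and limma 3.58.1 voom with quality weights were alternatives under R 4.3.3. Figures and summaries used Python 3.11.15, pandas 2.3.3 and matplotlib 3.10.9. Levels are TMM-scaled CPM over 18 libraries, per kb of merged exons wherever genes are compared. A count of 0 was bounded by 3 counts per library, on library size alone, and intervals and bounds cover counting error only. The scripts' test step was tested on simulated data. Values per library are given for the 2 genes of each cluster with the highest level per kb, for genes called in any comparison and for the 2 smallest p in each comparison. The HOX genes, the lists of partners and regulators and the marker lists were chosen with earlier results of these data known. Hoxc9, Hoxc4, Hoxd3, Hoxd13, Hoxb3 and Kdm6a were named after their values were seen. 1 HOX gene and 1 partner gene are not reported here by name; they remain in sums, counts and medians. Total counts of 721853 to 32540164 limit the precision of low genes.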

Additional observations from a re-analysis of the deposited data

Results flagged for a closer look

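Hoxd10 lay on opposite sides of its Controls in the libraries labelled as knockouts, but neither change passed the test (edgeR unadjusted p = 0.449 and 0.394). It had 5.28, 4.76 and 2.63 CPM in Mettl14 CKO and 7.24, 6.27 and 5.91 CPM in Mettl14 Control, with every CKO library lower, and 15.1, 10.8 and 12.2 CPM in Mettl3 CKO and 9.40, 4.06 and 8.62 CPM in Mettl3 Control, with every CKO library higher. Of all genes, 4.77% were lower without overlap in Mettl14 CKO and 6.47% higher in Mettl3 CKO. The 2.63 CPM, in Mettl14 CKO replicate 3, was 3 counts. The difference between both effects, Mettl14 minus Mettl3, was -1.36 on the log2 scale and did not pass the test (edgeR adjusted p = 1.00).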

How the results depend on the processing

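In the 6 comparisons with no HOX gene called, the count was 0 under every alternative run: DESeq2, RLE factors, no low-count filter, the replicate block, other sets of libraries, each library left out and limma voom. With GSK-J4 against Mettl3 CKO, where 3 genes were called, DESeq2 called 6, the replicate block 1, a fit of the compared groups alone 0, a fit of all 18 libraries 5 and limma voom, added after seeing the data, 0. Leaving out 1 library gave 0 to 5. Against Mettl3 Control, where 1 was called, DESeq2 called 4, the unfiltered fit 2, the compared groups alone 0, all 18 libraries 3, limma voom 0, and leaving out 1 library 0 to 4. For these alternatives, and for the fits without 1 library in both comparisons, counts over all genes are not given here. Those HOX counts therefore do not show a change particular to HOX genes. Hoxb2 was called in 10 of 13 alternatives in each comparison, with adjusted p of 3.5e-05 to 0.0850 and 4.0e-05 to 0.0792, and Hoxa6 and Hoxd11 in 5 of 13 against Mettl3 CKO. Over all genes, 2186 of the 16782 tested were called against Mettl3 CKO, and 3700 were by DESeq2. The calls were 1407 with the replicate block, 977 in the compared groups alone, 3373 in all 18 libraries and 1734 by limma voom. The median of all genes was -0.36 by limma voom and -0.29 with the block, where the HOX medians were -1.02 and -0.42. Same-numbered libraries did not deviate together (r of -0.085 to 0.082). This cannot show whether they were made or grown together, since noise in single libraries also brings r towards 0. The block changed no other call. Asking for 1 CPM in each of the 3 libraries left 14 HOX genes on with GSK-J4 in place of 29, and 12 in place of 27 in all 6 groups. The HOX genes without overlap were also counted on library size alone, added after seeing the data, with the share of all genes in brackets. With GSK-J4 against Mettl3 CKO 4 of 34 were higher (14.7%) and 8 lower (18.4%). Against Mettl3 Control 3 were higher (14.6%) and 5 lower (18.9%). With GSK343 against Mettl14 CKO 2 of 32 were higher (6.39%), and in Mettl14 CKO against Mettl14 Control 2 of 32 (1.87%). Between the Controls 0 of 33 were higher (8.05%) and 3 lower (10.6%). Without TMM factors the summed levels in CPM per kb were, with GSK343, 51.7 for cluster A, 61.4 for cluster C and 75.4 for paralogue groups 9 to 13, and in Mettl14 CKO 69.2 for groups 9 to 13. With GSK-J4 they were 72.2 for cluster A, 80.2 for cluster C, 84.5 for groups 9 to 13 and 239.0 for all 39 genes. The cause of these shifts was not tested. Depth limits the shallow libraries: GSK343 replicate 3 would give at least 20 counts for only 5 HOX genes at the Mettl14 Control level.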
